A study of Rattus norvegicus with 10 samples.

Results

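Klotho (KL), the serotonin 2C receptor (HTR2C) and the prolactin receptor (PRLR) were followed in the choroid plexus of 10 female Wistar rats. They are the members of a list of 5 receptor genes (KL, HTR2C, PRLR, LEPR and INSR) whose symbols could be linked to an Ensembl identifier through the gene names at hand, 3 of 5 genes among 32883 listed in the files. The leptin receptor LEPR and the insulin receptor INSR were not linked and were not analysed here. The names came from the study's tables of transcribed and of differing genes, and the copy of the former used here named 1997 identifiers, the lowest with a mean of 45.1 TPM on the control diet. This is no threshold on the level, since a gene not named in the copy had a control mean of 4999 TPM, and nothing follows for the level of LEPR or INSR. The list was chosen by name with TPM of these rats known, so that the abundance of the 3 genes is a description and not a finding.

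The choroid plexus is the folded epithelium of the brain ventricles that secretes most of the cerebrospinal fluid (CSF). Klotho is a membrane protein that joins fibroblast growth factor receptors to form the receptor of the hormone FGF23, and its shed ectodomain reaches blood and CSF. The serotonin 2C receptor couples to the Gq protein and calcium release, and the choroid plexus epithelium is one of its classical sites. The prolactin receptor is a cytokine receptor that signals through JAK2 and STAT5, and the choroid plexus is known for its binding of prolactin.

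The rats, aged 27 weeks, received either a high fat diet (HFD, n = 5) or a nutrient source-matched control diet low in fat (control, n = 5), with 1 library of choroid plexus from each rat and no pooling. The study kept control rats below a set body weight and HFD rats above another, higher weight, so that diet and body weight cannot be told apart. The tissue carried its defining marker: transthyretin (TTR) alone took 32.2% to 39.7% of all transcripts. Of 15 listed epithelial markers 13 were linked, which depends on the gene names at hand and is no measure of their level. The values are TPM, each gene's share of all transcripts corrected for its length, so that levels of different genes can be compared. TPM carry no read number and the depth of each library is unknown. Control rat 1 stood apart from the others, where 1877 genes lay over 2-fold away from the rest, compared with 154 to 211 such genes in any other rat, and results are given with and without it. Rescaled TPM, which bring the typical gene to a common level in each rat, are given beside the TPM as deposited. The divisor was 0.749 for control rat 1 and between 0.945 and 1.13 for the remaining rats, and this step moved the median log2 difference between the diets over all genes from 0.12 to 0.01.

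The 250 bases before the annotated transcription starts are shown as the sequence context of the 3 genes. They were taken from RefSeq on the build GRCr8, which held all 3 genes, with 2 starts for Prlr, on the plus strand. The transcript values were made on the build Rnor_6.0. Capitals mark matches, on either strand, to the GC box GGGCGG, the TATA box TATAAA, the CCAAT box CCAAT, the STAT5 motif TTCNNNGAA and the OTX2 motif TAATCC. In the same order, 30.5%, 12.9%, 34.0%, 7.67% and 6.34% of 33469 windows of this length held these letters. The windows lie at chr12:5325753-5326002 (Kl), chrX:115452940-115453189 (Htr2c), chr2:60861515-60861764 (Prlr, upstream start) and chr2:60909409-60909658 (Prlr, downstream start).
Kl: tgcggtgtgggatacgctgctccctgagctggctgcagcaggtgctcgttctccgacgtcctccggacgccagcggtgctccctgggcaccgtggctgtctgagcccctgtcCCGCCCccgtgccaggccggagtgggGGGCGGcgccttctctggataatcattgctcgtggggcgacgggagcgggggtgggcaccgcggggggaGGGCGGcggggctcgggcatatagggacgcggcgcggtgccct
Htr2c: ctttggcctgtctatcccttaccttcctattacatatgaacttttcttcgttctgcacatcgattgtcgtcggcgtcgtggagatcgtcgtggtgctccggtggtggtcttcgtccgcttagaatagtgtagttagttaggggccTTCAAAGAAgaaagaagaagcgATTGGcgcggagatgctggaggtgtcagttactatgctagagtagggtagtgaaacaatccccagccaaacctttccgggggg
Prlr upstream start: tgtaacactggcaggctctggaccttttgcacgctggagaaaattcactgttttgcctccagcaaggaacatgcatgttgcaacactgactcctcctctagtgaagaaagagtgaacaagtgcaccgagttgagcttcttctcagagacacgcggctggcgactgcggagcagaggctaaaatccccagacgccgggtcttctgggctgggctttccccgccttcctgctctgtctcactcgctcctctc
Prlr downstream start: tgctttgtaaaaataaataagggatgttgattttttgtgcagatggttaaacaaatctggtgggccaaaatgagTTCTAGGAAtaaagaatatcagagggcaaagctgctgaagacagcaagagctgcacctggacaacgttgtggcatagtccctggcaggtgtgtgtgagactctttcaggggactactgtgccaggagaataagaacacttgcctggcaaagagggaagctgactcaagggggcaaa

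The Kl window was rich in GC, with 73.2% G and C and 27 CG pairs, against a median of 51.2% and 5 pairs over all windows. It held 3 GC boxes, beginning 138, 112 and 43 bases before the start. The Htr2c window had 50.4% G and C, a CCAAT box on the minus strand and 1 match to the STAT5 motif (TTCAAAGAA). Of the Prlr windows, the upstream one matched none of the 5 motifs, and the downstream one, with 45.6% G and C and 1 CG pair, held a STAT5 match (TTCTAGGAA) beginning 176 bases before its start. The TPM sum all transcripts of a gene, so that the values below do not tell which Prlr start was used. Neither do they separate the long and short forms of the prolactin receptor, the membrane and secreted forms of klotho or the edited forms of the serotonin 2C receptor.

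KL (ENSRNOG00000001092) was higher in every HFD-fed rat than in every control rat. The rescaled TPM of KL were 272, 414, 399.8, 379 and 409 in control rats 1 to 5 and 420.4, 446, 462, 449 and 463 in HFD rats 1 to 5. Control rat 1 was far below all others, and the highest control rat and the lowest HFD rat lay close together. The mean rescaled TPM of KL was 448 ± 17.3 (SD, n = 5) on the HFD and 375 ± 59.0 (SD, n = 5) on the control diet, which is 0.27 higher on the log2 scale (standard error 0.11, 95% interval 0.03 to 0.52). By limma over 12198 genes the adjusted p was 0.565, so that KL did not pass the test. The exact two-sided permutation test of KL alone gave p = 0.00794, the smallest that 5 rats against 5 allow, before any correction for the 12198 genes. Among all genes tested, 1.39% had every HFD rat above every control rat and 0% passed limma's adjusted threshold of 0.05.

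Leaving out control rat 1, the KL difference was smaller but more even. The control mean became 401 ± 15.5 rescaled TPM (SD, n = 4) and the log2 fold change 0.16 (standard error 0.05; limma, adjusted p = 0.283). The groups still did not overlap (exact permutation test, two-sided, p = 0.0159), as was the case for 2.24% of the genes tested without that rat. In TPM as deposited, KL was 204 in control rat 1, 393 to 419 in the other control rats and 421 to 522 on the HFD, again with no overlap (background 1.32%, and 1.52% without control rat 1). The exact permutation test of these deposited values gave p = 0.00794 with all rats and 0.0397 without control rat 1. The log2 fold change was then 0.38 with all rats and 0.17 without control rat 1 (limma, adjusted p = 0.723 and 0.656).

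HTR2C (ENSRNOG00000030877) had a similar difference, which rested little on control rat 1 in rescaled TPM and in part on that rat in TPM as deposited. The rescaled TPM of HTR2C were 376, 425, 405, 404 and 373 in control rats 1 to 5 and 432, 525, 451, 464 and 419.8 in HFD rats 1 to 5. Of the 5 HFD rats, 4 were above every control rat, and HFD rat 5 lay between control rats 2 and 3. The means were 458 ± 41 on the HFD and 397 ± 22.0 on the control diet (SD, n = 5 each), which is 0.21 higher on the log2 scale (standard error 0.07, 95% interval 0.04 to 0.37). The adjusted p by limma was 0.540. The exact permutation test of HTR2C alone gave p = 0.0159, before any correction for the 12198 genes. The share of all genes with 4 of 5 HFD rats above every control rat was not counted. Without control rat 1 the log2 fold change of HTR2C was 0.19 (limma, adjusted p = 0.351), and with TPM as deposited 0.31 with all rats and 0.20 without that rat (limma, adjusted p = 0.723 and 0.604). In TPM as deposited, control rat 1 was the lowest of all rats at 282, the other control rats had 379.5 to 430 and the HFD rats 426 to 510.3.

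PRLR (ENSRNOG00000057557) varied more between rats of a diet than it differed between the diets. The rescaled TPM of PRLR were 79.6, 189.5, 198, 123 and 122 in control rats 1 to 5 and 144, 156, 207, 181 and 199 in HFD rats 1 to 5. The control rats fell apart into high values in rats 2 and 3, lower values in rats 4 and 5 and the lowest in rat 1, and the diets overlapped. The means were 178 ± 26.9 on the HFD and 143 ± 50.2 on the control diet (SD, n = 5 each), which is 0.38 higher on the log2 scale (standard error 0.23, 95% interval -0.13 to 0.89; limma, adjusted p = 0.585). The exact permutation test gave p = 0.190 for PRLR. Without control rat 1 the log2 fold change was 0.19, with a 95% interval of -0.19 to 0.57 (limma, adjusted p = 0.693). With TPM as deposited it was 0.48 with all rats and 0.20 without control rat 1 (limma, adjusted p = 0.723 and 0.851).

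**Figure D1:**
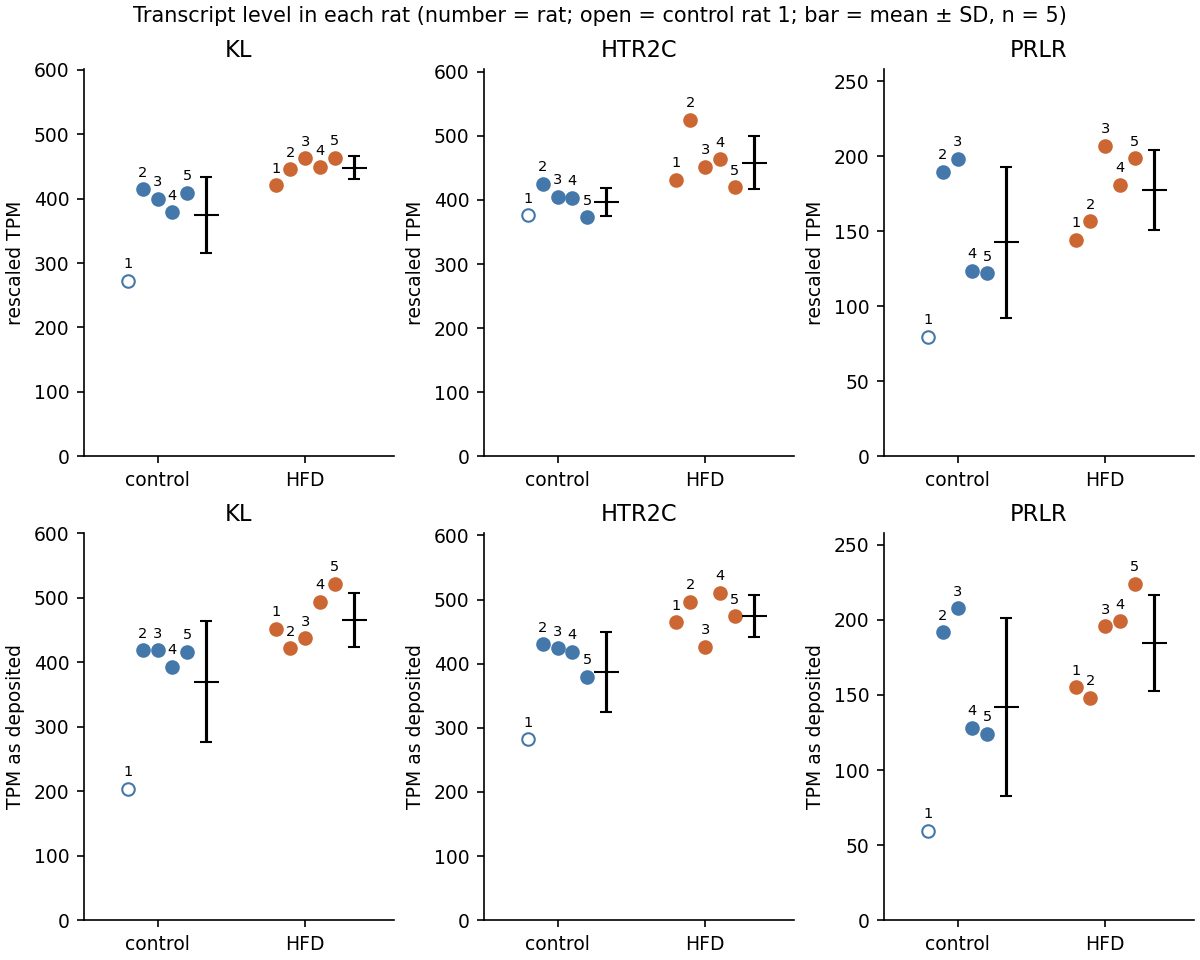
Levels of KL, HTR2C and PRLR in each rat, as rescaled TPM (upper panels) and TPM as deposited (lower panels), by diet, with the rat's number beside its point and the mean ± SD of 5 rats as a bar. Control rat 1 (open) is the lowest for KL and PRLR on both scales, and for KL the HFD rats lie above all control rats.

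At an unadjusted p under 0.05 by limma, 2 of the 3 genes, KL and HTR2C, were higher in HFD-fed rats, beside 3.78% of the 12198 genes tested in this direction, and 0 of 3 passed after adjustment. In the absence of control rat 1 the same 2 genes had an unadjusted p under 0.05 (background 5.54%). With TPM as deposited only HTR2C did (background 3.85%), and leaving out control rat 1 KL did as well (background 4.09%). The 3 genes were chosen with results of these data known, so that these counts support nothing beyond their description.

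**Figure D2:**
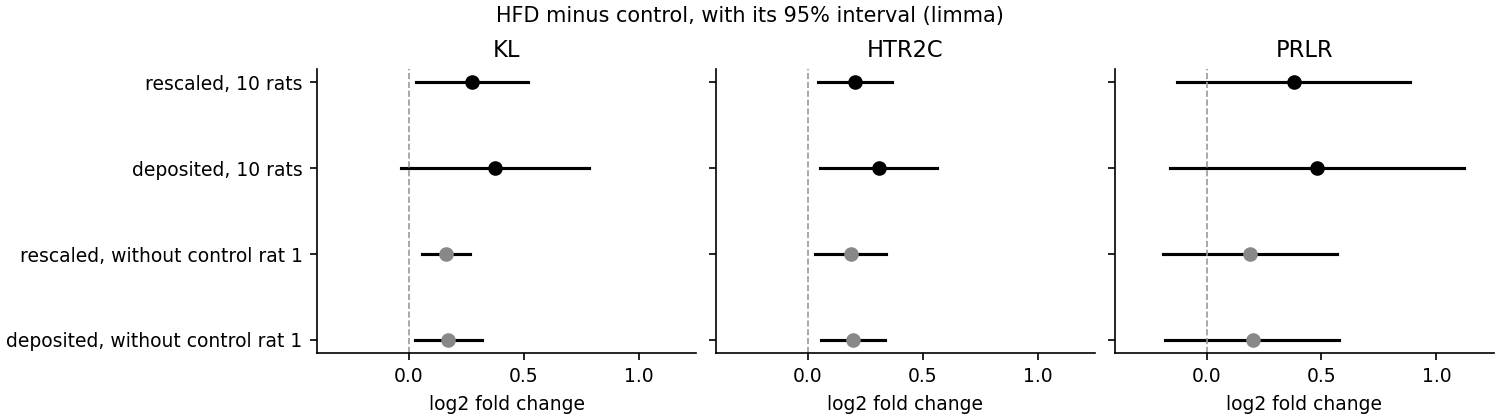
Log2 fold change (HFD minus control) of KL, HTR2C and PRLR with its 95% interval by limma, for rescaled and deposited TPM, with all 10 rats (black points) and without control rat 1 (grey points). Without that rat the estimates in rescaled TPM move from 0.27 to 0.16 (KL), 0.38 to 0.19 (PRLR) and 0.21 to 0.19 (HTR2C). In TPM as deposited they move from 0.38 to 0.17, 0.48 to 0.20 and 0.31 to 0.20 in the same order.

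PRLR had the lowest level of the 3 genes in every rat. Over all 10 rats, HTR2C and KL ranked 230 and 242 of 32883 genes by mean rescaled TPM, and PRLR ranked 612. The ratio of 2 genes within a rat does not depend on how that rat was scaled. HTR2C to KL was 1.08 ± 0.179 in control rats and 1.02 ± 0.10 in HFD-fed rats (SD, n = 5 each), so that the levels of both genes did not differ beyond their spread. Control rat 1 had the highest ratio of HTR2C to KL, 1.38, against 0.911 to 1.07 in the other control rats and 0.907 to 1.18 on the HFD. PRLR was below both other genes in every rat, with a ratio to KL of 0.293 to 0.496 in control rats and 0.343 to 0.448 in HFD-fed rats. The ratio of PRLR to HTR2C was lowest in control rat 1, at 0.212, and reached 0.490 in control rat 3. In the remaining 9 rats, the mean ratio of PRLR to KL was 0.394 in control rats and 0.395 in HFD-fed rats, and that of PRLR to HTR2C 0.392 and 0.391.

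**Figure D3:**
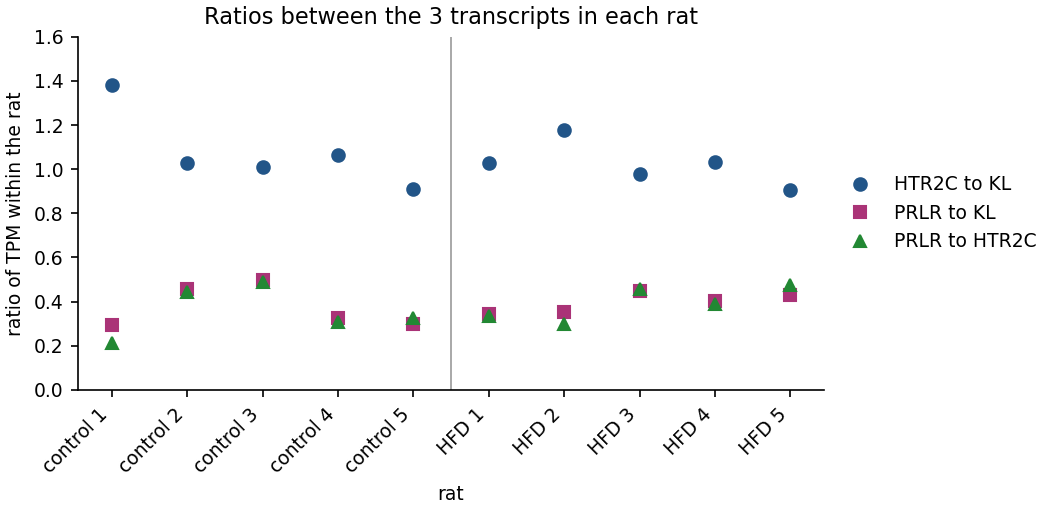
Ratio of TPM between pairs of the 3 genes within each rat, 5 control rats on the left and 5 HFD rats on the right. HTR2C and KL are near equal in 9 rats and at 1.38 in control rat 1, and PRLR lies below both in every rat.

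The spread between rats of a diet differed among the 3 genes. The within-diet SD of log2 rescaled TPM was 0.18 for KL, 0.11 for HTR2C and 0.41 for PRLR, against a median of 0.16 over the 939 genes with a mean of at least 100 rescaled TPM. Of those genes, 93.6% had a smaller spread than PRLR and 19.3% a smaller one than HTR2C. When control rat 1 was left out the median over those genes was 0.10. The SD of KL was then 0.06, with 6.92% of those genes below it. PRLR was at 0.30, with 95% below it, and HTR2C at 0.11, with 55.8% below it. The spread of PRLR was thus wide with or without control rat 1, and that of KL was narrow only without it. That of HTR2C was 0.11 both times, and its place among those genes moved with their median.

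The low levels in control rat 1 were not alike for the 3 genes. In rescaled TPM, KL was at 0.647 of the median of the other 9 rats, HTR2C at 0.885 and PRLR at 0.440. Of the 939 abundant genes, 7.77% were as low or lower than KL in that rat by this measure, 22.0% than HTR2C and 1.92% than PRLR. In TPM as deposited the fractions were 0.484, 0.656 and 0.312, where the median of all tested genes was also lower by 0.45 on the log2 scale. The 12 linked epithelial markers other than TTR, 1 of which is counted below among the hormone receptors, summed to 7172 rescaled TPM in control rat 1, 8847 to 9842 in the other control rats and 9122 to 9922 on the HFD. Of all 13 markers, 8 were lower in control rat 1 than in every other control rat and 5, TTR included, were higher. The sum of all 13, most of it TTR, went the other way, at 537500 rescaled TPM in control rat 1. It was 326200 to 335200 in the other control rats and 297100 to 414100 on the HFD. The summed 4 linked blood genes were at 7777 rescaled TPM in control rat 1, 3657 to 6913 in the other control rats and 3103 to 6387 on the HFD. The linked endothelial marker PLVAP was at 97.2 in control rat 1, 53.8 to 62.4 in the other control rats and 51.1 to 67.2 on the HFD, and the mural marker RGS5 at 42.6, 106 to 110.4 and 101 to 129. The summed 2 linked ependymal markers were at 269.9, 198 to 239.6 and 188 to 228 in the same order. The stromal marker DCN was at 116, 139.8 to 231 and 160.5 to 227, and the macrophage marker CD74 at 195, 150.2 to 218 and 178 to 240.1. Linked were 1 of 7 listed endothelial, 1 of 5 mural, 1 of 6 stromal and 1 of 9 macrophage markers. For ependymal cells it was 2 of 8 and for blood 4 of 7, so that these values do not measure the cell types as such. Of 10 listed markers of brain tissue 0 were linked, so that nothing follows for brain tissue in the samples. The part of these marker shifts in the levels of KL, HTR2C and PRLR was not tested. The mean effective transcript length, taken from the ratio of FPKM to TPM, was 788.7 bases in control rat 1. It was 904.9 to 917.9 in the other control rats and 874 to 967.5 on the HFD. The mean is weighted by TPM, so that the share of TTR, highest in control rat 1 at 39.7%, enters it. The part of that share was not tested. The part of RNA or library quality in the low levels of that rat was not tested either. In whole tissue, fewer cells of a type and less RNA per cell cannot be told apart.

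**Figure D4:**
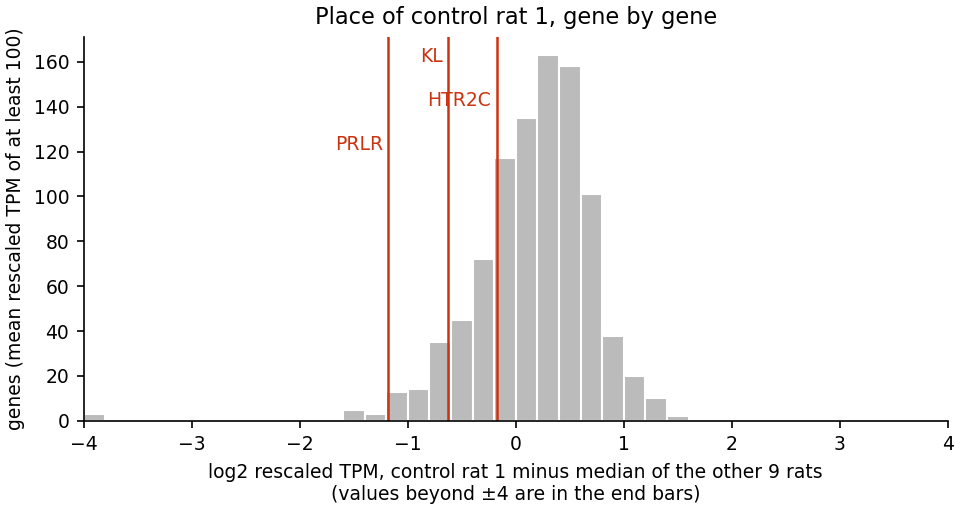
Number of genes with a mean of at least 100 rescaled TPM by their log2 difference between control rat 1 and the median of the other 9 rats, with KL, HTR2C and PRLR as red lines. All 3 lines lie left of 0, at -0.63, -0.18 and -1.18, while the median of these genes is at 0.22.

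Few other genes of the pathways could be linked to an identifier. Of 19 listed genes of klotho and FGF receptor signalling 3 were linked, of 25 of serotonin receptor signalling 2, of 18 of prolactin receptor signalling 2, of 6 of leptin receptor signalling 0, of 30 of insulin and IGF signalling 5 and of 43 other hormone receptors 3, each count including the 3 genes above. None of these genes had an adjusted p under 0.05 by limma. Apart from KL, HTR2C and PRLR, 0 of 12 had an unadjusted p under 0.05 in the direction higher on the HFD (background 3.78%), and 1 of 12, AKT1, in the direction lower (background 4.84%). They follow by pathway, as a description.

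Among the partners of klotho, FGFR1, the receptor with which it binds FGF23, had 55.2 ± 4.24 rescaled TPM on the HFD and 54.0 ± 5.95 on the control diet (SD, n = 5 each). FGFR2, a related receptor, had 107 ± 20.5 and 102 ± 20.8. Neither difference exceeded the spread between rats, with log2 fold changes of 0.04 and 0.07, and of -0.02 and 0.18 without control rat 1.

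ITPR1 encodes the calcium release channel that acts downstream of Gq-coupled receptors such as HTR2C. It was at 37.9 rescaled TPM in control rat 1, 49.1 to 53.9 in the other control rats and 52.1 to 63.3 on the HFD, so that the groups overlapped only slightly. The log2 fold change of ITPR1 was 0.22 with all rats and 0.13 without control rat 1 (limma, unadjusted p = 0.0505 and 0.0611, adjusted p = 0.573 and 0.453). ITPR1 lay at the edge of the unadjusted threshold of 0.05, which it passed in 9 of 20 alternative fits, among them those without control rat 5 and without HFD rat 2.

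CISH, a suppressor of cytokine signalling that STAT5 induces, was widely spread on the control diet. It was at 117 rescaled TPM in control rat 1 and at 19.7 to 81.0 in the other control rats, against 38.6 to 60.7 on the HFD. The log2 fold change of CISH was -0.24 with all rats and 0.01 without control rat 1, with a 95% interval of -1.11 to 0.63 in the former. Control rat 5 held the lowest value of CISH, and its omission gave a log2 fold change of -0.63 with a 95% interval of -1.13 to -0.14, so that single control rats moved the estimate both ways.

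In the insulin and IGF list, AKT1, a kinase downstream of the insulin receptor, had 87.5 ± 1.51 rescaled TPM on the HFD and 97.6 ± 6.34 on the control diet (SD, n = 5 each). Every HFD rat was below every control rat, as for 2.01% of all genes tested, and the log2 fold change of AKT1 was -0.16 with all rats and -0.12 without control rat 1 (limma, adjusted p = 0.540 and 0.330). With TPM as deposited the log2 fold change of AKT1 was -0.05 with all rats, with a 95% interval of -0.26 to 0.15, and -0.11 without control rat 1, and with upper-quartile rescaling it was -0.16. AKT1 had an unadjusted p under 0.05 in 16 of 20 alternative fits, and the exceptions were both fits of deposited TPM, the fit without control rat 3 and the replicate block. The growth factor IGF2, at 1569 ± 97.7 and 1650 ± 84.2 rescaled TPM, and its binding proteins IGFBP2, at 4463 ± 314 and 4885 ± 992, and IGFBP7, at 280.5 ± 29.7 and 307 ± 49.4, showed no difference beyond the spread (HFD and control, SD, n = 5 each). IGFBP2 reached 6585 in control rat 1, against 4206 to 4909 in the other control rats. The glucose transporter SLC2A1 had a log2 fold change of -0.03, or 0.07 without control rat 1, and the median over these 5 genes was -0.11, against 0.01 over all genes tested. With TPM as deposited the same medians were -0.01 and 0.12 and when control rat 1 was left out of the rescaled values -0.04 and 0.00215.

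Of the other receptors, the endothelin receptor EDNRB was at 20.7 rescaled TPM in control rat 1, 68.3 to 78.0 in the other control rats and 63.2 to 75.1 on the HFD. Its log2 fold change of 0.32 with all rats turned to -0.04 without control rat 1. The adiponectin receptor ADIPOR1 had 194 ± 4.06 on the HFD and 200 ± 13.2 on the control diet, and FOLR1, a folate receptor and epithelial marker rather than a hormone receptor, had 1215 ± 79.6 and 1362 ± 180.3 rescaled TPM (SD, n = 5 each). Neither passed the test by limma, with log2 fold changes of -0.04 and -0.16.

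**Figure D5:**
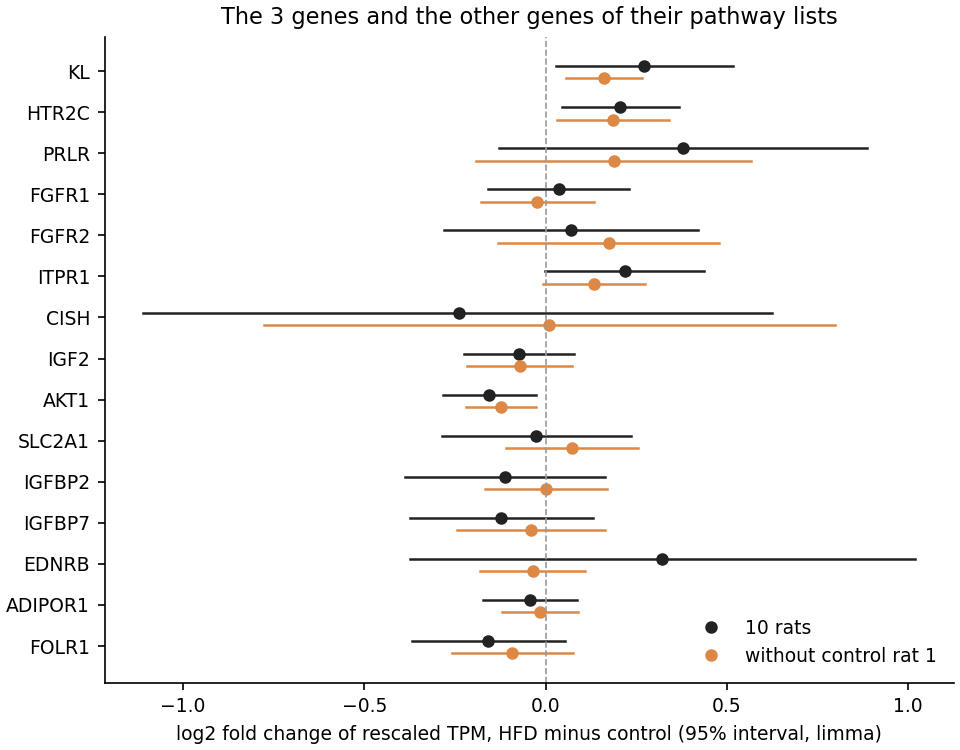
Log2 fold change of rescaled TPM (HFD minus control, 95% interval by limma) for KL, HTR2C, PRLR and the 12 other linked genes of the lists, with all 10 rats (black) and without control rat 1 (orange). Without that rat the estimates of FGFR1, CISH, SLC2A1, IGFBP2 and EDNRB lie on the other side of 0, and those of KL, HTR2C, PRLR and AKT1 keep their direction.

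The genes most like each of the 3 were searched among 2000 other named genes, by the root mean square difference of their log2 rescaled TPM over the rats after centring each gene on its mean. A small difference can also be reached by a gene that varies little, and the values describe these 10 libraries only. Over 10 rats the nearest genes to KL were FSTL1 (0.07), CCDC47 (0.07) and SEC63 (0.08), against a median of 0.30 over all candidates. FSTL1 encodes a secreted glycoprotein, and had 34.0 rescaled TPM in control rat 1, 52.2 to 55.6 in the other control rats and 61.0 to 66.8 on the HFD. HTR2C was the gene ranked 264 and PRLR that ranked 727 in likeness to KL. The nearest genes to HTR2C were HSD17B12 (0.08), EIF5 (0.08) and CAR2 (0.08), against a median of 0.22. CAR2, carbonic anhydrase 2, had 1045 rescaled TPM in control rat 1, 1223 to 1450 in the other control rats and 1291 to 1570 on the HFD. The nearest genes to PRLR were the calcium pump ATP2B3 (0.20), PHACTR2 (0.20) and the cation channel TRPM3 (0.21), against a median of 0.48, and KL ranked 18 in likeness to PRLR.

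Without control rat 1 the nearest genes were mostly others. Over 9 rats they were SULF1 (0.04), SEC63 (0.04) and TPP1 (0.05) for KL, CAR2 (0.06), ATP1B3 (0.07) and PON3 (0.07) for HTR2C, and TSEN34L1 (0.15), A2M (0.18) and TOB1 (0.19) for PRLR. SEC63 remained among the nearest genes of KL and CAR2 among those of HTR2C, and none of the 3 nearest genes of PRLR remained. In likeness to HTR2C, KL ranked 110 over these 9 rats and 485 over 10, and PRLR ranked 1862 and 1790. In likeness to KL, HTR2C ranked 197 over 9 rats and PRLR 1835. In likeness to PRLR, KL ranked 31 and HTR2C 177 over 9 rats, and HTR2C 339 over 10. The rank of a pair differed with the gene it was taken from. In the 9 rats PRLR differed by 0.24 from KL and by 0.27 from HTR2C. Both values were above the median over all candidates for KL and for HTR2C, 0.16 each, and below the median for PRLR, 0.31. PRLR was thus far from both other genes only as seen from those genes, which varied less between rats.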

How the data were processed

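RNA of 10 choroid plexus samples was sequenced as paired-end reads. The authors aligned them to Rnor_6.0 with STAR (version 2.7.2a per the labels), quantified genes with RSEM 1.3.3 and deposited gene-level TPM and FPKM. The deposited FPKM were not tested, since within a rat they are a multiple of its TPM. The study tested raw counts with DESeq2, which were not analysed here.

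For rescaling, the TPM of a rat were divided by the median of their ratios to the all-rat mean. This median was taken over 12037 genes above 0 in every rat and with a mean of at least 1 TPM. The divisors were brought to a geometric mean of 1. Genes with a mean of at least 1 were fitted with limma 3.58.1 (R 4.3.3), with diet as the only term and a mean-variance trend. Adjustment was by Benjamini-Hochberg over all genes tested, and the fit was on log2(TPM + 0.1). Fold changes are on that scale. Exact two-sided permutation tests compared mean log2 values over 252 assignments of 10 rats or 126 of 9. The fit was tested on simulated data. Other steps used python 3.11.15. Symbols came from the paper's gene tables, 2015 identifiers in all, and 7 symbols with several identifiers were left out.

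The members and lists were chosen with earlier results of these data known. Named genes were the listed receptors, the linked genes of their pathway lists and, for each member, the 3 nearest genes in profile over 10 and over 9 rats. Alternatives were other scalings, pseudocounts, filters, variance models, array weights, the replicate block and leaving out each rat. Replicates were separate rats. Both diets share replicate numbers 1 to 5, which were not used as pairs.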

Additional observations from a re-analysis of the deposited data

Results flagged for a closer look

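Rats were examined for a gap to their nearest neighbour that took more than 0.71 of the range among 5 rats of a diet. Such a gap was found in 3 of 42 groups of values, where chance would give about 2.1 (1 in 20) if the groups were separate, and all 3 were control rat 1. They were KL at 272 rescaled TPM with 379 to 414 in control rats 2 to 5 (gap 0.753 of the range), KL at 204 TPM as deposited against 393 to 419 (0.882), and EDNRB at 20.7 rescaled TPM against 68.3 to 78.0 (0.831). KL, HTR2C and PRLR entered on both scales and in their ratios, so that the groups were not separate. Both KL gaps are the same rat and gene, and the count cannot be weighed against chance.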

How the results depend on the processing

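The log2 fold changes of KL, HTR2C and PRLR stayed above 0 in each of 20 alternatives, and none had an adjusted p under 0.05 by limma. They ran from 0.16 to 0.38 for KL, 0.16 to 0.31 for HTR2C and 0.19 to 0.52 for PRLR, and their adjusted p from 0.149 to 0.723, 0.203 to 0.723 and 0.432 to 0.851. An unadjusted p under 0.05 was reached by KL in 15, HTR2C in 20 and PRLR in 1 of the 20 alternatives. The last was without control rat 3 (log2 fold change 0.52), and KL missed it with TPM as deposited and without HFD rat 2, 3, 4 or 5. The number of genes with an adjusted p under 0.05 by limma, 0, was 1 with no filter on low values and 3 with array weights. At an unadjusted p under 0.05 there were 1051 genes, against 624 with TPM as deposited, 622 when a mean of 10 TPM was required (fewer genes were tested), 1877 with array weights and 793 to 1439 when 1 rat was left out, the most for control rat 1. The split between directions moved from 461 higher and 590 lower to 470 and 154 with TPM as deposited and to 130 and 492 when a mean of 10 TPM was required. Deviations from the group means correlated at 0.12, -0.04, 0.01, 0.06 and 0.11 between rats sharing a number, so no pairing was assumed. A replicate block gave 1137 genes at the unadjusted threshold and 0 after adjustment, with log2 fold changes of 0.27 for KL, 0.21 for HTR2C and 0.38 for PRLR and an adjusted p of 0.521 for each. Besides KL, HTR2C and PRLR, 1 of the 12 pathway genes, AKT1, had an unadjusted p under 0.05, and 0 had with TPM as deposited, with or without control rat 1. In alternatives applied to these genes after seeing the data, the number was 2, AKT1 and ITPR1, with upper-quartile rescaling, either other pseudocount, no filter on low values, a required mean of 10 TPM and array weights. It was 1 with the replicate block, ITPR1, and 1 to 3 when 1 rat was left out, with CISH added without control rat 5 and FOLR1 in place of AKT1 without control rat 3. Over the 20 alternatives AKT1 passed in 16, ITPR1 in 9, CISH in 1 and FOLR1 in 1, and 0 of the 12 genes had an adjusted p under 0.05. The cause of the other shifts was not tested. LEPR and INSR were not linked, so their alternatives were not run. With the depth unknown, no counting error could be given.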
